A study of Mus musculus with 7 samples.

Results

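The genes described here are 10 components of one signalling route and its early response, the transcription factors *Creb1*, *Crem* and *Atf1*, the coactivators *Crtc1*, *Crtc2* and *Crtc3*, the kinases *Sik1* and *Sik2*, and the stimulus-induced genes *Atf3* and *Csrnp1*. They were taken by symbol from a table of 47729 genes, all 10 were found and all 10 passed the filter on low counts, beside 19684 genes tested in all. RNA came from the forebrain of mice at postnatal day 15 (P15), in 4 control (*Lhx6*+/-) and 3 mutant (*Lhx6*-/-) samples, and each sample pooled 2 animals of the strain F1(C57BL/6 X 129Sv). The allele in both genotypes is Lhx6tm2Vpa, so the controls also carry 1 copy of it, and the mutation is carried by every cell of the animal rather than by one cell type. Control pools were of 2 males or 2 females, and mutant pools of 2 females or of 1 animal of each sex. Columns are headed only by genotype and library number, which do not give sex. The sex of each library was not inferred from sex-linked genes. Values per library are given in the order 2, 3, 10 and 11 for controls and 5, 12 and 13 for mutants.

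CREB1, CREM and ATF1 are related leucine zipper proteins that bind the cyclic AMP response element (CRE) in front of many genes. Kinases switched on by cyclic AMP or Ca2+ phosphorylate them, and CRTC proteins, which salt-inducible kinases (SIKs) hold in the cytoplasm until the same signals release them, join them on DNA as coactivators. In neurons the route links synaptic activity to transcription, and some of its products, among them the repressor ICER made from an internal promoter of *Crem*, the kinase SIK1 and the factor ATF3, in turn damp the response. The study profiled the mutant forebrain as the environment that grafted interneuron precursors meet, and the comparison here asks which components of this route differed between genotypes at the RNA level.

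Libraries held between 32556304 and 38069151 expected counts. The targeted gene *Lhx6* had between 476 and 615 normalized counts in the control libraries and between 70.1 and 76.6 in the mutant libraries, so the column labels and this gene match. Libraries 2, 3 and 5 lay apart from libraries 10 to 13 on the first principal component, which held 39.6% of the variance. Both runs of numbers hold both genotypes, and differences in log2 CPM within each run are given for the members. *Slc17a7*, a marker of excitatory forebrain neurons, was present at 67951 ± 4534 normalized counts in controls (SD, n = 4 pools), whereas none of 8 hindbrain and spinal cord markers passed the filter and *Hoxa4* and *Hoxa5* were at 0 in every library.

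Of the 10 genes, 3 rose in mutants (*Atf3*, *Csrnp1* and *Crem*) and 0 fell. Genes were called at an adjusted p of 0.05 or less in the quasi-likelihood test of edgeR (Benjamini-Hochberg over all tested genes), which called 4.85% of all genes, 2.97% higher and 1.87% lower. Before adjustment 18.2% of all genes and 4 members passed, among them *Crtc1*, which was lower. DESeq2 called the same 3 members higher and 0 lower, where it called 9.17% of all genes (5.29% higher and 3.88% lower). So did limma-voom, with 4.89% of all genes (3.09% higher and 1.80% lower), and edgeR with a covariate for the library run, with 11.2% (6.16% higher and 5.04% lower). The same 3 genes were the members whose mutant libraries all lay above all control libraries, a pattern that 10.7% of all tested genes showed, beside 9.00% with the reverse and 19.7% with either. The median log2 fold change of the 10 genes was 0.11, beside -0.013 over all tested genes. The other 7 members, *Creb1*, *Atf1*, the 3 CRTC genes and the 2 SIK genes, were not called. The counts come from whole tissue, in which more cells of a type and more RNA per cell cannot be told apart.

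**Figure D1:**
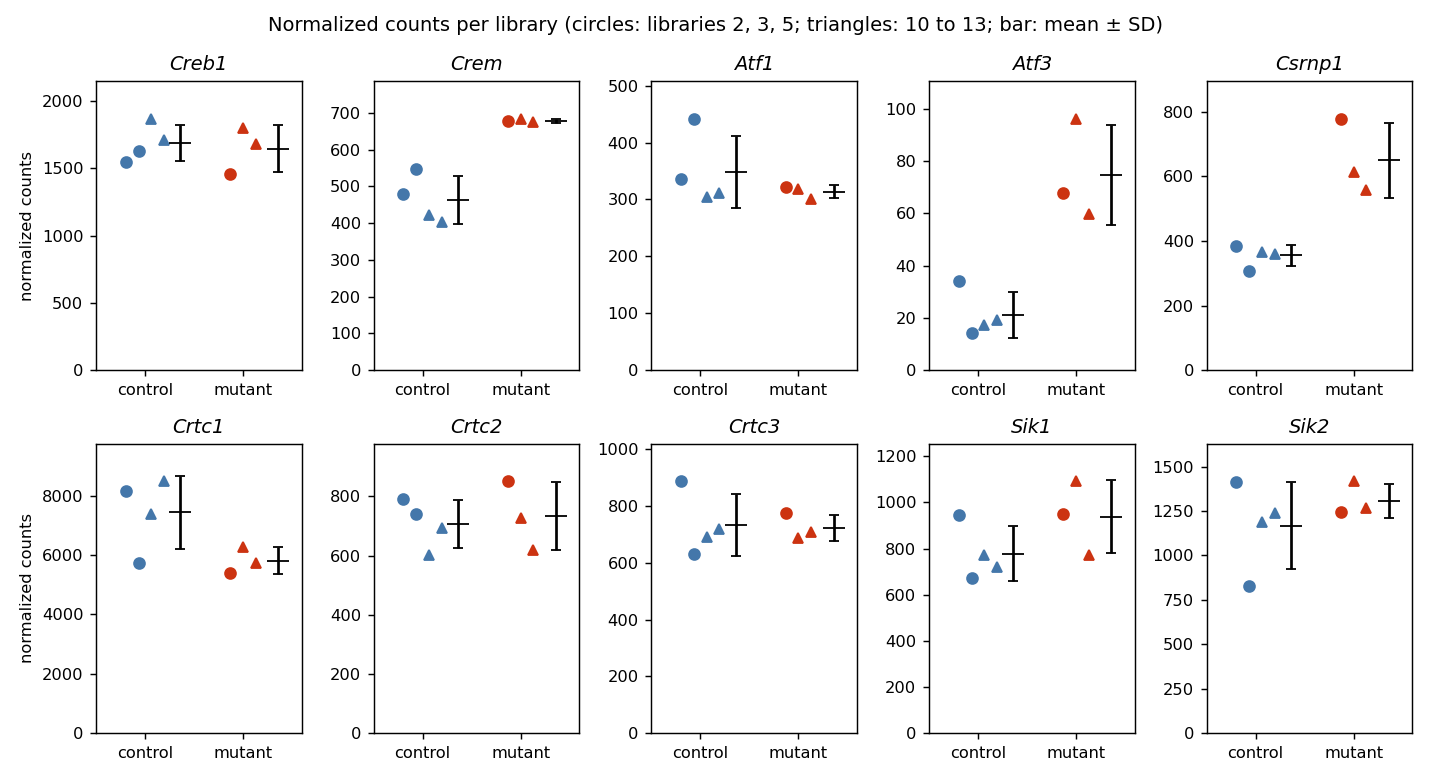
Normalized counts (y axis, from 0) of each of the 10 genes in the 4 control (blue) and 3 mutant (red) libraries, with the mean and SD of each genotype in black; circles are libraries 2, 3 and 5 and triangles libraries 10 to 13. *Crem*, *Atf3* and *Csrnp1* are the panels in which red and blue do not overlap.

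The CRE is the palindrome TGACGTCA, and many promoters hold only its core, TGACG, or CGTCA on the other strand. Both forms were searched on both strands in RefSeq promoter windows of GRCm38.p6, from 250 bases before to 50 bases after each start, which were given for 7 of the 10 members (not for *Crem*, *Crtc2* and *Sik1*). The full palindrome occurs in 1.79% and the core in 20.8% of all windows, and a full palindrome also counts as a core. No member window held the palindrome. Cores lay in windows of 4 members, *Atf3*, *Csrnp1*, *Sik2* and *Atf1*, and in none of *Creb1*, *Crtc1* and *Crtc3*. They are printed 5′ to 3′ on the strand of the gene with the core in capitals, since they show which letters of the element the called genes *Atf3* and *Csrnp1* carry and that the uncalled *Sik2* and *Atf1* carry them too.
Atf3, 7 bases before the start, chr1:191183324-191183352: ttaatagcattaCGTCAgcctgggattgg
Csrnp1, 38 bases before the first start, chr9:119983045-119983073: ttcacctgtcacCGTCAcactcagaggcc
Csrnp1, 62 bases before the second start, chr9:119983825-119983853: aggcccggcgtgCGTCAgcgccgtgagcc
Csrnp1, 31 bases before the second start, chr9:119983794-119983822: ggagttttccacTGACGaggagggcggag
Csrnp1, 95 bases before the third start, chr9:119984522-119984550: cctgccgtgggcTGACGaggactcgggtg
Csrnp1, 142 bases before the fourth start, chr9:119984868-119984896: gaagaaagggccCGTCAtcctccccaccc
Sik2, 1 base before the start, chr9:51009058-51009086: gccccggcccccTGACGtcggctcacgtc
Sik2, 13 bases after the start, chr9:51009045-51009073: gacgtcggctcaCGTCAgcgccggcgcgc
Atf1, 90 bases before the start, chr15:100227757-100227785: gtgaccacgcggTGACGcagcacgccggc

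All of these stretches lie on the minus strand except that of *Atf1*, on the plus strand, and the 2 stretches of *Sik2* overlap. The 4 RefSeq starts of *Csrnp1* lie between 5773 and 7492 bases upstream of the start in the deposited annotation, which has 1 transcript for this gene, and that of *Atf3* lies 34706 bases inside the deposited gene. A match of letters does not show that CREB binds there.

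*Creb1*, the founding member of the family (chromosome 1, 64532645 to 64604548, plus strand, GRCm38), had 1552, 1629, 1869.9 and 1709.5 normalized counts in the controls against 1462, 1803 and 1681 in the mutants. The genotypes overlapped, with mutant library 5 the lowest and control library 10 the highest of the 7, and the within-run differences were -0.12 and -0.039. Its log2 fold change was -0.036 with a 95% interval from -0.26 to 0.19 (adjusted p = 0.903 from edgeR), so that the interval holds changes between 0.835-fold and 1.14-fold. *Atf1*, its closest relative beside *Crem* (chromosome 15, 100227819 to 100261244, plus strand), had 336, 442, 305 and 312 normalized counts in the controls and 322, 319 and 301 in the mutants. Control library 3 was the highest and the other 6 lay within 301 and 336. The log2 fold change of *Atf1* was -0.15 (95% interval -0.49 to 0.19, adjusted p = 0.678 from edgeR), with within-run differences of -0.26 in the first run and 0.0059 in the second. Other genes, *Gm1862* first among them, hold 15.6% of its 36-base words, so its counts are less certain than those of *Creb1*, where the share is 0.541%.

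*Crem*, the cyclic AMP responsive element modulator (chromosome 18, 3266048 to 3337748, minus strand), was the member of the trio that rose. It had 478, 547, 422 and 402 normalized counts in the controls against 677, 684 and 674 in the mutants. The 3 mutant pools were nearly equal, with a coefficient of variation of 0.753%. Counting error alone would leave a larger spread at this level, so this closeness does not measure how much mutant pools vary. The controls varied by 14.0%, libraries 2 and 3 lying above libraries 10 and 11. The mean went from 463 ± 65.0 (SD, n = 4 pools) to 679 ± 5.11 (SD, n = 3 pools), a 1.47-fold rise (95% interval 1.21 to 1.78). The log2 difference was 0.55 (SE 0.122, edgeR adjusted p = 0.0389). The difference in mean log2 CPM was 0.40 among libraries 2, 3 and 5, and 0.72 among the others, 10 to 13. The call did not hold when 1 library was left out in 6 of 7 fits, with an adjusted p from edgeR of 0.0787 without control library 2, 0.106 without control library 10, 0.0903 without control library 11, 0.117 without mutant library 5, 0.133 without mutant library 12 and 0.145 without mutant library 13, while the log2 fold change stayed between 0.49 and 0.64.

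The deposited annotation gives *Crem* 39 transcripts, more than any other member (*Creb1* has 11 and *Atf1* 9). A gene count adds activating CREM forms, repressing forms and ICER, which share their last exons, so the rise cannot be assigned to any of them. As a part of the CREB trio, *Crem* took 26.7%, 26.1%, 23.3% and 23.2% of the summed level per kilobase of exon in the controls against 35.2%, 33.0% and 34.1% in the mutants. With the longest transcript as the length in place of all exons, the mutant share was 41.3% ± 1.33 (SD, n = 3). On either length the mutant shares lay above the control shares, and the share of *Atf1* was 35.9% ± 3.45 in controls and 30.4% ± 1.57 in mutants.

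**Figure D2:**
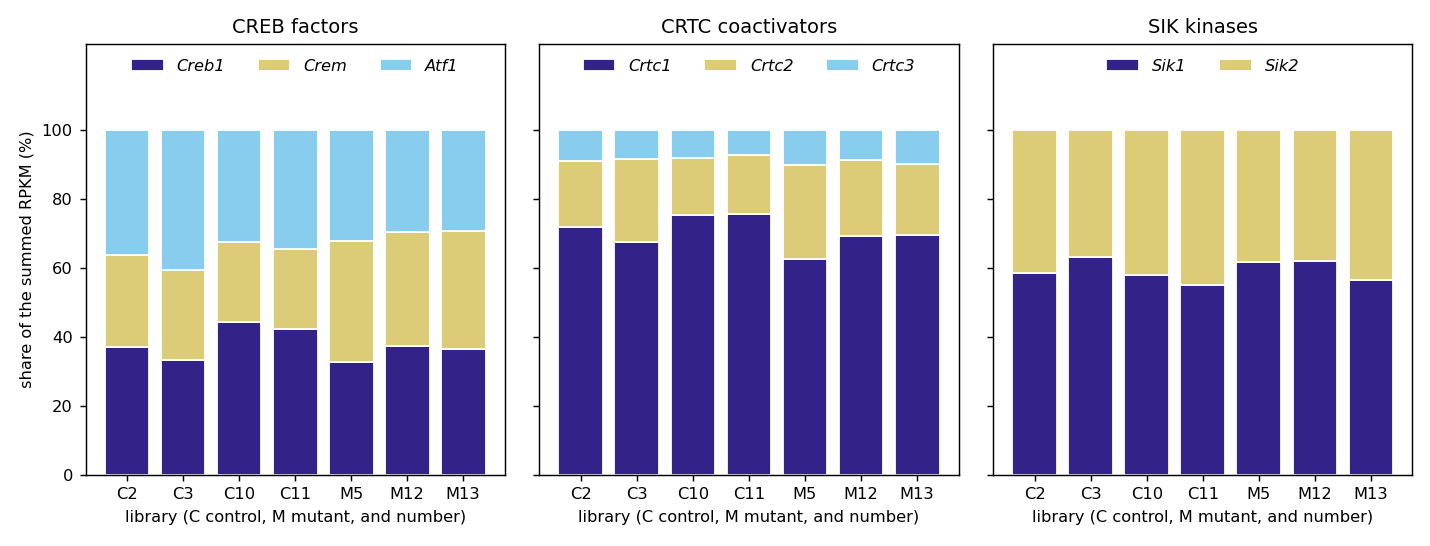
Share (%) of each gene in the summed level per kilobase of exon of the CREB factors, the CRTC coactivators and the SIK kinases, 1 bar per library (C control, M mutant). *Crem* takes between 23.2% and 26.7% of the CREB trio in control bars and between 33.0% and 35.2% in mutant bars, and *Crtc1* is the largest part of the CRTC bars throughout.

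*Atf3*, a stress and injury responsive factor of the wider ATF/CREB group that represses many of its targets (chromosome 1, 191170296 to 191218039, minus strand), had the largest change and the lowest level of the 10. Its normalized counts were 34.0, 14.1, 17.3 and 19.3 in the controls against 68.0, 96.3 and 59.7 in the mutants. Every mutant library was above every control, and the gap between the highest control and the lowest mutant was 34.0 to 59.7. The mean rose from 21.2 ± 8.83 (SD, n = 4 pools) to 74.6 ± 19.2 (SD, n = 3 pools). That was 3.53-fold (95% interval 2.10 to 5.91) and 1.82 on the log2 scale (SE 0.328, edgeR adjusted p = 0.0171). It rested on between 14 and 93 expected counts per library, and *Atf3* had a mean normalized count at percentile 22.5 of the tested genes. Within libraries 2, 3 and 5 the difference was 1.54 and within libraries 10 to 13 it was 1.94. The adjusted p from edgeR was 0.0567 without control library 10, 0.0519 without control library 11 and 0.0788 without mutant library 12, and at or below 0.05 in the other 4 fits that left out 1 library. Its sequence shares 0% of 36-base words with other genes, whereas *Crem* shares 6.34%, with *Gm6225*, which also overlaps it on the opposite strand, and *Csrnp1* shares 3.82%.

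*Csrnp1*, a nuclear protein with a cysteine- and serine-rich region, induced by AXIN1 (chromosome 9, 119971166 to 119977250, minus strand), had 386, 308, 367 and 359.8 normalized counts in the controls. In the mutants it had 779, 613 and 558. The lowest mutant pool lay above the highest control pool, and among the mutants library 5 was highest. Means were 355 ± 33.3 (SD, n = 4 pools) and 649.7 ± 115 (SD, n = 3 pools), a 1.83-fold rise (95% interval 1.46 to 2.28) or 0.87 on the log2 scale (SE 0.141, edgeR adjusted p = 0.0112). The call held in 7 of 7 fits that left out 1 library, where the adjusted p from edgeR reached 0.0409 without mutant library 12. The difference in log2 CPM was 1.17 among libraries 2, 3 and 5, and 0.68 among the others. The other 2 genes of the CSRNP family were not called, *Csrnp3* having 3322 ± 165 normalized counts in controls and 3058 ± 192 in mutants.

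**Figure D3:**
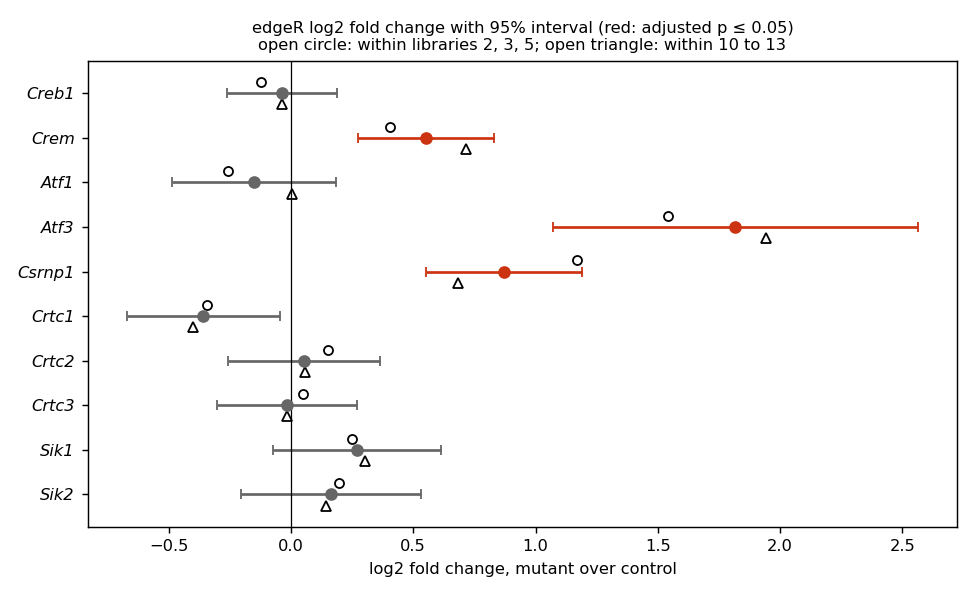
Log2 fold change of mutant over control (x axis) for each gene, with the 95% interval of the edgeR fit, which is not adjusted for the number of genes; red marks an adjusted p of 0.05 or less. Open circles and triangles give the difference within libraries 2, 3 and 5 and within libraries 10 to 13, and both lie to the right of 0 for the called *Crem*, *Atf3* and *Csrnp1* and for the uncalled *Sik1*, *Sik2* and *Crtc2*.

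The CRTC coactivators were dominated by *Crtc1*, the form enriched in brain (chromosome 8, 70382355 to 70439579, minus strand). It had 8142, 5738, 7389.5 and 8479.5 normalized counts in the controls against 5388, 6286 and 5730.4 in the mutants. Control libraries 2, 10 and 11 lay above all mutants, and control library 3 lay among the mutants. The log2 fold change was -0.36 (SE 0.137), and with an edgeR p of 0.0290 before and 0.208 after adjustment it did not pass the threshold. Without control library 3 the log2 fold change was -0.46 and the adjusted p 0.0351, the only fit of those tried in which *Crtc1* was called. The differences within the 2 runs of libraries were -0.34 and -0.40.

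*Crtc2*, the form best known from liver glucose metabolism (chromosome 3, 90254163 to 90264125, plus strand), had 789.6, 741, 602 and 694 normalized counts in the controls and 851, 728 and 620.2 in the mutants. *Crtc3* (chromosome 7, 80586627 to 80688877, minus strand) had 887, 633, 693 and 719 in the controls and 776, 687 and 709 in the mutants. The genotypes overlapped in both genes, although mutant library 5 had the highest *Crtc2* of the 7. Their log2 fold changes were 0.053 (95% interval -0.26 to 0.36) and -0.017 (95% interval -0.30 to 0.27), with adjusted p of 0.896 and 0.969 from edgeR. By run, *Crtc2* differed by 0.15 and 0.056 and *Crtc3* by 0.050 and -0.015. In level per kilobase, *Crtc1* held 72.7% ± 3.73 of the CRTC sum in controls (SD, n = 4) and 67.3% ± 3.94 in mutants (SD, n = 3), ranges that overlap.

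*Sik1*, itself a CREB target whose product restrains CRTC proteins (chromosome 17, 31844248 to 31855792, minus strand), had 945, 674, 772 and 719 normalized counts in the controls against 950.3, 1091 and 774 in the mutants. Control library 2 reached the level of mutant library 5, and mutant library 13 that of control library 10. The log2 fold change was 0.27 (95% interval -0.072 to 0.61, adjusted p = 0.405 from edgeR), so the interval holds changes from 0.951-fold to 1.53-fold. Within each run the lowest mutant lay only narrowly above the highest control (950.3 against 945, and 774 against 772). The differences of means were 0.25 and 0.30 in log2 CPM, the first resting on 1 mutant library. *Sik2*, abundant in neurons and fat (chromosome 9, 50892801 to 51009073, minus strand), had 1415, 827, 1189 and 1237 in the controls and 1242, 1416 and 1264 in the mutants. The SD among controls (246) exceeded the difference between the means of 1167 and 1307, and its log2 fold change was 0.16 (95% interval -0.20 to 0.53, adjusted p = 0.681 from edgeR). The runs gave 0.20 and 0.14. The gene overlaps *Ppp2r1b* on the opposite strand over 15.0% of its exon length, and since the strand setting of the counting is not given in the sources used here, reads from the overlap cannot be told apart.

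Levels can be compared between genes only per length, and RPKM, the reads per kilobase of exon scaled to library size, was used for this. *Crtc1* was highest, at 18.7 ± 3.06 in controls (SD, n = 4) and 14.5 ± 1.14 in mutants (SD, n = 3), above each other member in all 7 libraries. *Crtc2* (4.84 ± 0.549) and *Sik1* (4.83 ± 0.739) followed in controls and overlapped. *Csrnp1* (3.47 ± 0.325), *Creb1* (3.45 ± 0.278), *Sik2* (3.43 ± 0.724) and *Atf1* (3.20 ± 0.582) came next, each overlapping its neighbour. *Crem* (1.91 to 2.60) and *Crtc3* (1.80 to 2.53) overlapped each other, and *Atf3* was lowest at 0.275 ± 0.115. In mutants *Csrnp1* stood at 6.35 ± 1.12, *Crem* at 3.23 ± 0.0243 and *Atf3* between 0.777 and 1.25. With the longest transcript as the length, *Crtc1*, *Crtc2*, *Atf1* and *Atf3* kept ranks 1, 2, 7 and 10 and the other 6 genes changed places, so the places of those 6 depend on the length used.

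**Figure D4:**
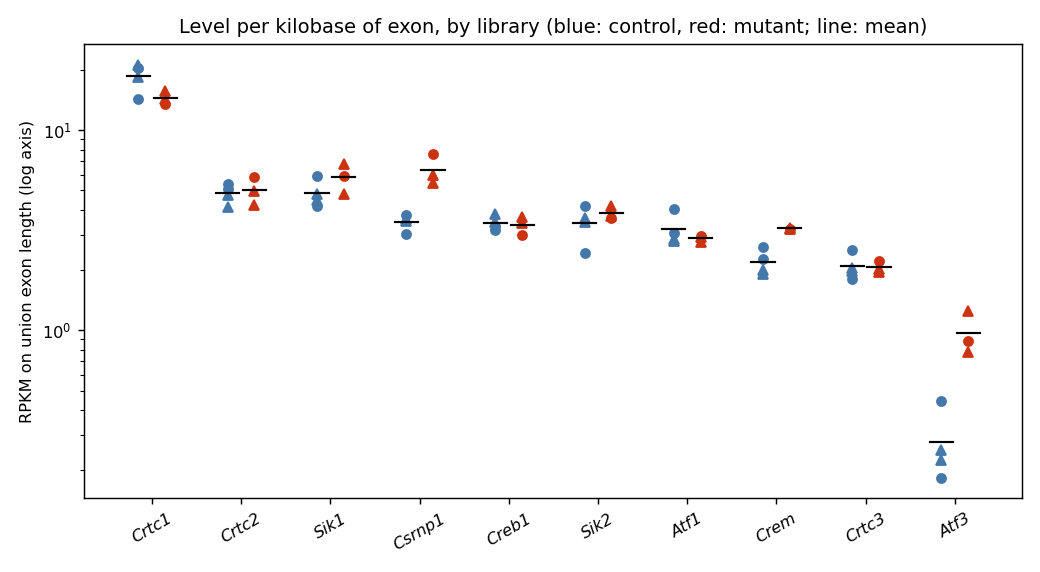
Level per kilobase of exon (RPKM on union exon length, log axis) of each gene by library, blue for control and red for mutant, with a line at each mean; genes are ordered by their control mean. *Crtc1* stands alone at the top and *Atf3* at the bottom, and the 8 genes between them lie within 1.80 and 7.61.

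Genes of the surrounding pathway were taken from 5 lists by role. Of 36 kinases, cyclic AMP enzymes and anchors acting upstream of CREB, 3 rose, 3 fell and 30 did not pass, beside 2.97% and 1.87% of all genes, and the median log2 fold change was 0.011. *Camkk2*, which activates the CREB kinase CaMKIV, fell the most, from 14212, 13508, 12193 and 13974 normalized counts in the controls to 6525, 6579 and 6787 in the mutants. On the log2 scale it changed by -1.02 (SE 0.0840, edgeR adjusted p = 0.000648), and the call held in all 7 fits that left out 1 library. *Pkig*, an inhibitor of protein kinase A, fell by 0.46 and *Rps6ka2*, a ribosomal S6 kinase of the ERK pathway, by 0.53 on the log2 scale (adjusted p = 0.0231 and 0.0338 from edgeR). *Rps6ka4*, which encodes the CREB kinase MSK2, the regulatory subunit *Prkar2a* of protein kinase A and the cyclic AMP phosphodiesterase *Pde4a* rose by 0.38, 0.38 and 0.39 (adjusted p = 0.0165, 0.0332 and 0.0478 from edgeR). The most abundant genes of the list that were not called were *Adcy1*, with 38596 ± 8256 normalized counts in controls and 40194 ± 2035 in mutants, and *Prkar1b*, with 23735 ± 855 and 25784 ± 1474. Calls in this list fell from 6 to 1 without control library 10, mutant library 12 or mutant library 13. They fell to 2 without control library 11 or mutant library 5 and to 4 without control library 2 or control library 3. Without mutant library 5 only *Camkk2* of the 6 held, and the other call was of a gene outside the 6. Apart from *Camkk2*, each of the 6 held in 1 or 2 of the 7 fits. DESeq2 called 4 genes higher and 7 lower, and with a covariate for the library run 6 were higher and 7 lower.

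Of 13 genes that act on SIK or CRTC proteins (*Sik3*, the LKB1 complex, AMPK subunits, *Mark2* and 14-3-3 proteins), 0 were called in either direction by edgeR, DESeq2 or limma-voom, and 1, *Sik3*, had an unadjusted p of 0.05 or less. It had 5068 ± 653 normalized counts in controls and 6067 ± 346 in mutants (adjusted p = 0.267 from edgeR). The most abundant were the 14-3-3 genes *Ywhaz* (48029 ± 7844 and 42688 ± 2931) and *Ywhae* (29294 ± 5186 and 26483 ± 1357). Of 17 tested coactivators and phosphatases, 0 were called by edgeR or limma-voom and 1 by DESeq2, *Ppp3ca*, and 1 was higher and 2 lower before adjustment. *Ppp3ca* and *Ppp3r1*, subunits of calcineurin, which dephosphorylates CRTC proteins, had log2 fold changes of -0.51 and -0.40 (adjusted p = 0.168 and 0.176 from edgeR). Median log2 fold changes of these lists were -0.081 and 0.0052.

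Among 17 further ATF, CREB-like and CSRNP genes, 1 rose and 1 fell, where 2.97% and 1.87% of all genes did. *Creb3l1*, a membrane-bound factor of the secretory pathway, had 371, 257, 242 and 189 normalized counts in the controls against 1800.0, 1300.0 and 1578 in the mutants. The log2 difference was 2.56 (SE 0.214, edgeR adjusted p = 0.000659), larger than that of any member, and it held in all 7 fits that left out 1 library. *Jdp2*, a repressing partner of JUN and ATF factors, fell from 1283 ± 93.3 to 951 ± 58.9 normalized counts (adjusted p = 0.0298 from edgeR). Its call did not hold without control library 2 or 11 or mutant library 5, 12 or 13, in each of which the list had 1 call. *Atf2* (3396 ± 404 and 3111 ± 349.5) and *Csrnp3* were the most abundant genes of the list that were not called. The median log2 fold change of this list was -0.078.

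Of 34 genes known as targets of CREB, 14 rose, 1 fell and 19 did not pass, against 2.97% and 1.87% of all genes, with a median log2 fold change of 0.53. Several of them were already known to be raised in these libraries when the list was chosen, so the count describes the list and is not independent evidence. Those that rose included the neuropeptide and secretory granule genes *Adcyap1* (578 ± 80.7 to 6218 ± 663 normalized counts), *Scg2* (5076 ± 1046 to 17164 ± 1613), *Vgf* (10264 ± 1874 to 26099 ± 3737), *Penk* (3067 ± 842 to 7027 ± 924), *Tac1*, *Vip* and the convertase *Pcsk1* (694 ± 79.0 to 1217 ± 49.2). The growth factors *Bdnf* (921 ± 111 to 4006 ± 137) and *Inhba* (80.9 ± 27.3 to 352 ± 134) rose as well. So did the synaptic pentraxin *Nptx2*, the dopamine synthesis enzyme *Th* (54.5 ± 9.07 to 389 ± 102), the G-protein regulator *Rgs2* and the early genes *Npas4* and *Fosb*. Other early genes of the list did not pass in edgeR. *Dusp1*, *Fos*, *Ier2*, *Nr4a1* and *Btg2* had log2 fold changes of 0.64, 0.44, 0.17, 0.17 and 0.14. Those of *Egr1*, *Junb*, *Nr4a3* and *Nr4a2* were -0.30, -0.36, -0.26 and -0.53. *Sst*, a textbook CREB target and the marker of an interneuron class that *Lhx6* specifies, was the one called lower by edgeR (5356 ± 874 to 588 ± 70.7). DESeq2 called 16 targets higher and 3 lower, limma-voom 13 and 1, and edgeR with the run covariate 18 and 3. *Egr1*, with 10793 ± 814 and 8792 ± 2913, and *Chga*, with 6208 ± 1495 and 8773 ± 1506, were the most abundant that did not pass (adjusted p = 0.482 and 0.208 from edgeR). The list had between 11 and 15 calls when 1 library was left out. The calls of *Penk* and *Vip* did not hold without mutant library 12 or 13. Those of *Tac1* and *Rgs2* did not hold without control library 2 or 10 or mutant library 12 or 13, that of *Fosb* held only without mutant library 13, and the other 10 held in all 7 fits.

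**Figure D5:**
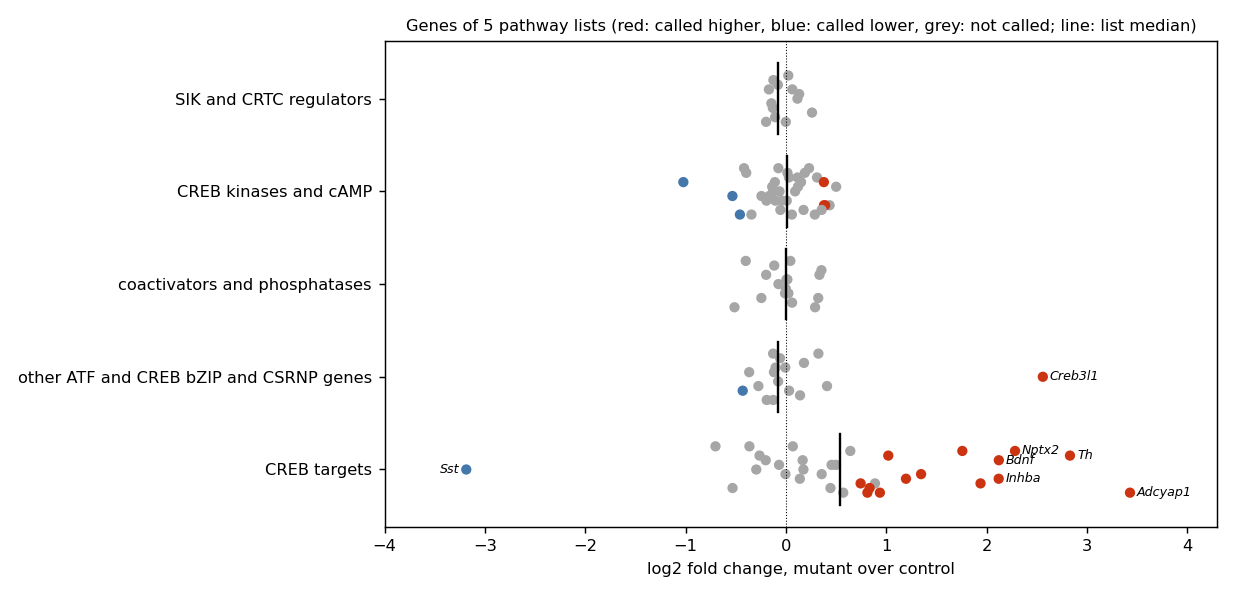
Log2 fold change of mutant over control (x axis) for each tested gene of 5 lists, red where called higher, blue where called lower and grey where not called, with a black line at each list's median; vertical scatter within a list carries no value. The line of the CREB targets stands at 0.53, and those of the other lists lie between -0.081 and 0.011.

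Among the CREB targets, windows were given for 27 of 34 genes, of which 7 held the palindrome (25.9%) and 24 a core (88.9%), beside 2.03% and 23.05% of all genes with a window. Those with the palindrome went different ways in mutants. *Scg2*, *Pcsk1* and *Th* rose, *Sst* fell, and *Cartpt*, *Dusp1* and *Btg2* did not pass the threshold. The elements of 3 genes that rose and of the 1 that fell are shown with the palindrome in capitals, because they carry the same 8 letters at 45 to 78 bases before the start.
Scg2, 68 bases before the start, chr1:79440076-79440105, minus strand: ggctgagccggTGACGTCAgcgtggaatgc
Pcsk1, 78 bases before the start, chr13:75089768-75089797, plus strand: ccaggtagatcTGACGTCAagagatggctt
Th, 45 bases before the start, chr7:142900022-142900051, minus strand: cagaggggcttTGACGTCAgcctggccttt
Sst, 48 bases before the start, chr16:23890874-23890903, minus strand: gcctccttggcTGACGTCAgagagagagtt

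For each called member, the 3 genes with the most similar profile over the 7 libraries were sought, by the root mean square difference of log2 CPM relative to each gene's own mean. For *Crem* these were *Clic1*, *Tiam2* and *Chil1*, at 0.069, 0.073 and 0.078, where the profile of *Crem* itself has a root mean square of 0.31. *Atf3* lay nearest to *S100a3*, *Drd4* and *Otoa*, at 0.21, 0.25 and 0.27 with a root mean square of 0.95 of its own. *Csrnp1* lay nearest to *Cdh4*, *P2rx6* and *Grhl3*, at 0.073, 0.081 and 0.098 with 0.45 of its own. None of these 9 genes belongs to the pathway lists. All 9 had a higher mean in mutants, which the choice by profile fixes.

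Markers of other cells moved in some lists. In 8 endothelial markers 0 were called by edgeR or limma-voom. DESeq2 called 3 higher, edgeR with the run covariate called 5 higher, and 5 were higher before adjustment. Of all genes, 5.29% were higher with DESeq2, 6.16% with the covariate, and 18.2% passed before adjustment in either direction. The summed normalized count of the endothelial markers was between 8388 and 8997 in controls and between 10625 and 10909.8 in mutants. Of 8 astrocyte markers 1 rose, *Gfap* (6537 ± 490 to 25196 ± 2556), while 3 were higher with DESeq2 and 3 with the run covariate. The sum of these 8 went from between 187684 and 279715 to between 310709 and 364205. Of 8 oligodendrocyte markers 3 fell (*Mbp*, *Mag* and *Cnp*, which were not called without mutant library 13). DESeq2 called 5 of them lower and edgeR with the run covariate 8, beside 3.88% and 5.04% of all genes. Sums of the 8 were from 241124 to 313762 in controls and from 173013 to 215410 in mutants. In 8 microglial markers 0 were called by edgeR, DESeq2 or limma-voom, 1 was lower with the run covariate and 2 were lower before adjustment. Their sums were from 14229 to 14605 in controls and from 12082 to 14016 in mutants. Apart from the hindbrain list, no defining marker of these lists was at 0 in every library, and the part of these cells in the rise of *Atf3*, *Csrnp1* and *Crem* was not tested.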

How the data were processed

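Forebrain RNA of 7 pools was read as 36-base single ends, trimmed with cutadapt 1.9.1 and aligned by the authors with Bowtie2 2.2.9 to the Ensembl release 84 transcriptome (GRCm38). The authors deposited RSEM 1.2.31 expected counts per gene, not normalized, which share reads among genes that match them equally. Gene symbols came from their deposited comparison table, whose fold changes and p-values were not used, and positions and lengths from the deposited exon annotation. Columns carry a genotype but no replicate number, so libraries were grouped by genotype. All columns of sample values were used (0 unused).

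Expected counts were rounded. The filter kept a gene that reached 10 counts in 3 or more libraries, and genotypes were compared with edgeR 4.0.16 (TMM, quasi-likelihood F-test, no covariate) in R 4.3.3, with Benjamini-Hochberg adjustment over 19684 genes. Each SE was obtained from the fold change and its F statistic. Counts were normalized to the mean TMM-scaled library size. For a gene at 0, counting error alone leaves room for 3 counts (0.0788 to 0.0921 CPM). Between libraries of a genotype the chi-square per degree of freedom was between 9.36 and 65.9, so each counted as 1 replicate. P-values set the difference between genotypes against the spread between pools, which in the main fit includes the difference between library runs. Log2 CPM used a prior count of 2, and shared 36-base words came from GENCODE M21 transcripts.

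Alternatives were DESeq2 1.42.0, limma-voom (limma 3.58.1), other normalizations and filters, unrounded counts, a covariate for the run of library numbers (2, 3 and 5 against 10 to 13) and each library left out. The members, lists and alternatives were chosen with earlier results of these data known. Genes named are all members, *Lhx6*, called genes and the 2 most abundant uncalled genes of each list, and the 3 nearest profiles per called member. Chosen after their values were seen were *Sik3*, *Cartpt*, *Dusp1*, *Btg2*, *Fos*, *Ier2*, *Junb*, *Nr4a1*, *Nr4a2*, *Nr4a3* and the named markers. *Taf4* did not match a symbol in the table and *Fhl5* was below the filter. The lists were upstream kinases and cyclic AMP genes, SIK and CRTC regulators, coactivators and phosphatases, other ATF, CREB-like and CSRNP genes, CREB targets, and markers of astrocytes, microglia, endothelium, oligodendrocytes and hindbrain. A list of excitatory neuron markers is not reported here.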

Additional observations from a re-analysis of the deposited data

How the results depend on the processing

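The calls of *Atf3*, *Csrnp1* and *Crem* as higher held in all 8 alternatives of tool, normalization, filter, rounding and covariate. Leaving out each library gave between 1 and 3 members called higher, between 0 and 1 called lower, between 1 and 4 calls among upstream kinases and cyclic AMP genes (main 6), between 1 and 2 among other ATF and CREB-like genes, and between 324 and 949 among all genes (main 954). DESeq2 called 11 upstream genes, 19 CREB targets (main 15), 4 ATF and CREB-like genes, 1 coactivator or phosphatase and 1734 genes in all. With a covariate for the library run these counts were 13, 21, 4, 1 and 2205. Changes near 0 turned sign in genes that were never called. *Crtc3* went from -0.017 to 0.0077 with upper quartile normalization and to 0.0036 with the run as a covariate, and when 1 library was left out it ran from -0.082 to 0.086, *Creb1* from -0.11 to 0.043 and *Crtc2* from -0.070 to 0.16. The cause of these shifts was not tested. No paired analysis was possible because the columns carry no replicate number. At between 14 and 93 counts, *Atf3* has the least precise change of the members.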
